A study of Homo sapiens with 16 samples.

Results

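Promoter peaks that were present in DDX23-/- cells and in neither wild-type nor POLK-/- cells are described here. They are the peaks of the DDX23-/- list that share no base with a peak of the wild-type or POLK-/- list and have an edge no more than 1 kb from a protein-coding gene's start. There are 2545 of them, among 5945 peaks of the DDX23-/- list and 9864 peaks of all 3 lists. The DDX23-/- list has 4327 promoter peaks, and 58.8% of them met the rule. In the whole list, promoters and other places together, 58% of peaks overlapped no peak of either other list. Presence in the first list and absence from the other lists are what these peaks were chosen by, so that difference is a description and was not tested. Nor was any other difference, since each genotype has 1 peak list and its second pulldown has none used here.

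The lists come from ChIP-Seq of HEK293T cells, a line derived from human embryonic kidney, in which DNA bound by a protein is pulled down and sequenced. The groups are untreated wild-type cells, untreated POLK-/- cells and untreated DDX23-/- cells, each with 2 pulldown and 2 control samples by the labels and with a peak list for the pulldown numbered 1. The labels name Polk as the antibody of these pulldowns, whereas the protocol describes beads against the FLAG tag, and no tag is stated for these cells. The POLK-/- list holds 2451 peaks and the wild-type list 1468, so peaks were also called in cells named as lacking POLK. A peak here is therefore not by itself a site of the POLK product, and which protein the peaks reflect was not tested. The labels do not say whether a knockout line is a single clone, and the library numbers inside the peak names of the wild-type and DDX23-/- lists differ from the sample numbers. A peak missing from a list was not called there, which does not show that the protein was absent.

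Pol κ, the product of POLK, is a DNA polymerase that copies past certain damaged bases, among them guanines that carry a group on the N2 position. DDX23 is a DEAD-box RNA helicase of the spliceosome that is also known for limiting R-loops, in which RNA pairs with one DNA strand behind a transcribing polymerase. Most promoters of broadly expressed human genes lie in CpG islands, stretches rich in G and C that keep their CG pairs because they are not methylated. Such promoters often carry GC boxes, short sites bound by Sp1 and its relatives.

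DNA at or near the summits of 4 of the peaks with the largest -log10 p (CAMK1D, FUCA1, ENTREP3 and CERS6) is shown because these peaks lead the set, together with the shared promoter peak closest to the first of them in -log10 p. Sequences are from GRCh37 and run 5′ to 3′ on the strand of the gene. Bases of untranslated exons were left out, so each is the longest remaining stretch within 150 bases of the summit, of at most 150 bases. Capitals mark matches on either strand to the motifs searched, among them the GC box GGGCGG, the CCAAT box and the ETS core CCGGAAG. In CERS6 the second GC box match overlaps the third. The stretches of CAMK1D, ENTREP3 and TARDBP stop short of the summit. The stretches lie at chr10:12391437-12391545 for CAMK1D, chr1:24194781-24194930 for FUCA1, chr1:155225275-155225375 for ENTREP3, chr2:169312568-169312717 for CERS6 and chr1:11072560-11072678 for TARDBP, the shared peak. FUCA1 and ENTREP3 are on the minus strand.
CAMK1D: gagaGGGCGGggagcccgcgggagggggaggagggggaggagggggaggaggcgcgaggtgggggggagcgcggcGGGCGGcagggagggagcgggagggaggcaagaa
FUCA1: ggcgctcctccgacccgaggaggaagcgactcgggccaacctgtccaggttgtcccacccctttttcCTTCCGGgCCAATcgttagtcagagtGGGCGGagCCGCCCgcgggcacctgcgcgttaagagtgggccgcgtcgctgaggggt
ENTREP3: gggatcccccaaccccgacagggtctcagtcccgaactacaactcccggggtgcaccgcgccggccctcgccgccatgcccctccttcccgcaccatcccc
CERS6: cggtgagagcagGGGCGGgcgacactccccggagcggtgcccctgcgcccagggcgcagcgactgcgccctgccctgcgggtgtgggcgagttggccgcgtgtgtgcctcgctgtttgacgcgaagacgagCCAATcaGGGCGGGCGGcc
TARDBP: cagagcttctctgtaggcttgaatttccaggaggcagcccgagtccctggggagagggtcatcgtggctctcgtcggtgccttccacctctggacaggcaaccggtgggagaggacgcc

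The stretches of CAMK1D, FUCA1, ENTREP3 and CERS6 hold 68% to 79.8% G and C, and all but that of ENTREP3 carry at least 1 GC box. The stretch of FUCA1 has an ETS core, a CCAAT box and a pair of GC boxes close together. That of ENTREP3 has no match to any of the 12 motifs. The TARDBP stretch, from a shared peak with a fold of 24.3, has no match either.

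CAMK1D, which encodes a calcium-dependent protein kinase, had the strongest of the 2545 peaks. The fold of a peak is the deposited enrichment over the local background, and its fragments are the recovered number of DNA fragments over the summit. CAMK1D's peak (chr10:12391412-12391772) had a fold of 26.3 and 118 fragments, with a summit 41 bp downstream of the start. PPTC7, which encodes a mitochondrial protein phosphatase, followed with a fold of 23.4 and 95 fragments. The summit of that peak lies 19 bp upstream of the start. The next by -log10 p was a peak of UBQLN2 (fold 23.3). FUCA1, the lysosomal α-L-fucosidase, had a fold of 17.1, and CERS6, a ceramide synthase, had a fold of 16.4. The peaks that followed by -log10 p were those of TXNDC16 (fold 18.5), LHX1 (16.2), VASP (15.9), PTPN1 (17.1), UBR4 (15.5), MPC2 (16.7), OTX1 (14.8), PLEKHH1 (14.8) and RPL35 (15.7), behind ENTREP3 with 16.8. LHX1 and OTX1 are homeobox regulators of development, PTPN1 is a tyrosine phosphatase, UBR4 a ubiquitin ligase and MPC2 a subunit of the mitochondrial pyruvate carrier. Of these 15 peaks, 10 had the start of the gene inside the peak. The largest folds outside these 15 were those of FAM219A (15.9), ICE2 (15.8), CTR9 (15.2), ARPC3 (14.9) and VPS26A (14.6). CTR9 is a subunit of the Paf1 elongation complex, ARPC3 of the actin-nucleating Arp2/3 complex and VPS26A of retromer.

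UBQLN2, which encodes a shuttle protein that carries ubiquitinated proteins to the proteasome, had a peak wider than all the others. It ran over 1944 bp, the only one of the 2545 that reached 1 kb. It held all 1872 coding bases of this gene of 1 exon, which made up 96.3% of its length. Its summit lies 2009 bp downstream of the start with a fold of 23.3 and 79 fragments, and the 300 bases round it hold 49.3% G and C. The reads under this peak were not analysed here, so the signal behind its fold was not checked. A second, separate peak stands at the start itself, with a summit 40 bp upstream, a fold of 5.55 and 30 fragments. VASP, which encodes an actin regulator, also had its summit away from the start. It lay 892 bp downstream of the gene's 5′ end, yet upstream of the gene's canonical transcript. The VASP peak was 442 bp from a peak of another list.

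Most of the 2545 peaks were weaker than the promoter peaks that DDX23-/- cells shared with another genotype, although the ranges overlapped. The median fold was 6.35 (95% interval 6.27 to 6.45), with quartiles of 5.33 and 7.67 and a range of 2.46 to 26.3. The 1782 shared promoter peaks had a median fold of 10.2 (9.98 to 10.6). The median -log10 p was 11.8 (11.3 to 12) against 25.6 (24.6 to 26.6), the fragments at the summit numbered 27 (27 to 28) against 48 (47 to 49), and the width was 288 bp (284 to 293) against 445 bp (434 to 457). The local background was the same in both, 3.03 fragments. Such intervals reflect only how many peaks there are, and spread between cultures was not measured. Above the median of the shared promoter peaks stood 172 of the 2545 by fold, 6.76%, and 126 by -log10 p, 4.95%. The weakest were at SEMA6C (fold 2.46), RPS6KL1 (3.10) and ZNF629 (3.10). The 902 peaks of the DDX23-/- list alone that lie away from protein-coding starts had a median fold of 6.35 (6.27 to 6.54), the same as at promoters.

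**Figure D1:**
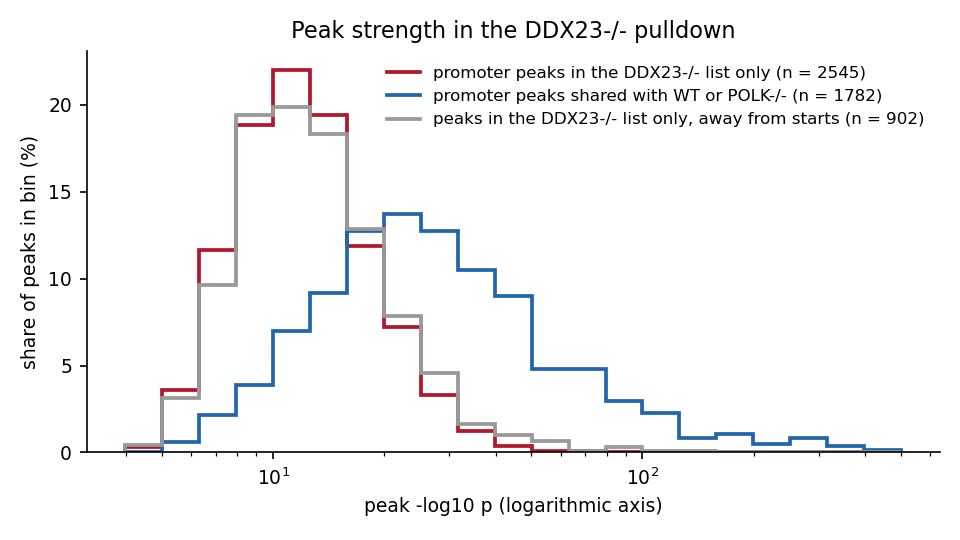
Peak strength in the DDX23-/- pulldown, as the share of peaks (%) in each bin of -log10 p on a logarithmic axis. Lines show the 2545 promoter peaks in the DDX23-/- list only, the 1782 promoter peaks shared with wild-type or POLK-/- and the 902 other peaks in the DDX23-/- list only. The first and last curves peak near 10 and lie over each other, and the shared promoter peaks lie to the right.

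Depth moved with presence in the DDX23-/- list. Relative depth was estimated as a list's lowest local background divided by the width of its shortest peak. By this estimate the depth of the DDX23-/- pulldown library was 3.94 times that of wild-type and 1.67 times that of POLK-/-. The estimate rests on extreme values of each list and was not checked against read counts. With fragments and background scaled down to wild-type depth, 1264 of the 2545 peaks (49.7%, 47.7 to 51.6, exact binomial 95% interval) still reached 5.28, the weakest -log10 p of the wild-type list. Of the shared promoter peaks, 88.7% (87.1 to 90.1) did so. Scaled to POLK-/- depth, 2518 of the 2545 (98.9%) reached 4.70, the weakest -log10 p of the POLK-/- list. Of the 1782 shared promoter peaks, 1779 (99.8%) did so, so nearly every peak passes this bar. In a setting chosen after seeing the data, each list was cut to its 1468 strongest peaks by -log10 p, as many as the wild-type list has. Of the 1468 DDX23-/- peaks kept, 197 met the rule, whereas 2545 of all 5945 did. These 197 had a median fold of 12.6 (12.3 to 13.0). Depth, list size and genotype cannot be told apart in these lists.

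Few of the 2545 peaks sat near a peak of another list. The nearest wild-type or POLK-/- peak was over 10 kb away for 2397 of them (94.2%) and within 500 bp for 62. The rule leaves out peaks that overlap another list's peak, and those lists hold only 1468 and 2451 peaks over the genome. The same distances were not computed for all starts, so these counts are a description and do not show that the sites are unusually isolated. The peaks just inside the rule were those of XIAP, which touched another list's peak without sharing a base, PYGL at 21 bp and STK35 at 35 bp. Just outside were those of YIPF6 and SYNRG, which shared 25 bases with another list's peak, and AFMID, which shared 28. XIAP, an inhibitor of caspases, had a fold of 6.19, and YIPF6 had one of 6.27. At the limit of distance, the edges of the peaks of GINS2 and TNRC18 were 992 and 990 bp from the start, and those of FAM177A1, MAMSTR and ARHGEF1, at 1004, 1011 and 1019 bp, fell outside. Of 1782 shared promoter peaks, 881 overlapped a POLK-/- peak only, 190 a wild-type peak only and 711 both.

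Summits gathered at the gene start. The start is the 5′ end of the gene in GENCODE 44 placed on GRCh37. The median summit stood 18 bp downstream of it (13 to 26), with quartiles at -81 and 168 bp, and 56.5% of summits (54.6 to 58.4) were downstream. The shared promoter peaks had a median of 14 bp (9 to 19) and the same share downstream, 56.5% (54.1 to 58.8). The spread differed: 47% of the 2545 summits (45 to 48.9) lay within 100 bp of the start, against 56% (53.7 to 58.3) of shared promoter summits. Within 250 bp were 70.2% (68.4 to 71.9) against 76.8% (74.8 to 78.8), and over 500 bp downstream were 9.94% (8.81 to 11.2) against 7.07% (5.92 to 8.36). The start was inside 58.3% of the 2545 peaks and inside 75.7% of the wider shared ones. ZNF852, which encodes a zinc finger protein, had its summit on the start itself (fold 11.4), and ORC3, a subunit of the origin recognition complex, had one 4 bp upstream (fold 9.43). SLC25A46 had one 949 bp downstream (fold 8.03).

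The side of the start on which summits fell depended on which start was taken. Measured from the canonical transcript of the same gene, which starts elsewhere than the gene's 5′ end for 61.5% of these peaks, the median summit of the 2521 peaks with such a transcript stood at -34 bp (-40 to -26). Then 39.2% were downstream (37.2 to 41.1), and for shared promoter peaks 38.2% (35.9 to 40.5). The difference in spread stayed, with 52.1% (50.1 to 54.0) within 100 bp against 60.3% (58.0 to 62.6). Of the 2545 summits, 1522 were upstream of the canonical transcript, 655 in the untranslated part of its first exon, 112 in the coding part of that exon and 225 in the first intron. VPS26A shows the dependence, with its summit 634 bp downstream of the gene's 5′ end and yet upstream of its canonical transcript.

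**Figure D2:**
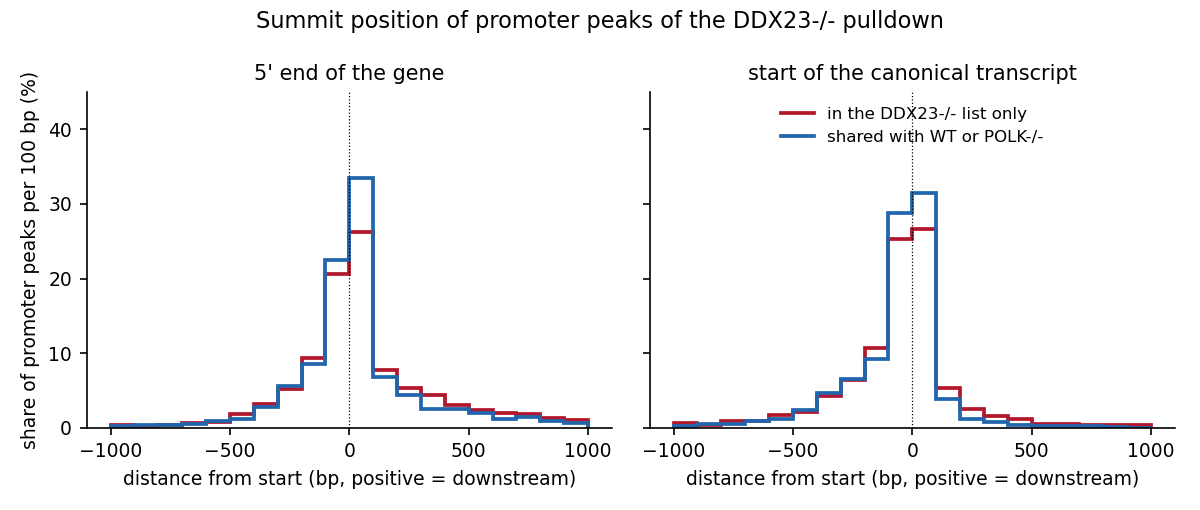
Distance of summits from the start of the gene in bp (positive is downstream), as the share of promoter peaks (%) per 100 bp, with the 5′ end of the gene on the left and the canonical transcript on the right. Both curves peak within 100 bp of the start, and the one for promoter peaks in the DDX23-/- list only is lower there and higher further downstream than the one for shared promoter peaks.

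Stronger peaks sat closer to the start. Among the 637 with the smallest -log10 p, 40% of summits (36.2 to 44) were within 100 bp, and among the 636 with the largest, 56.4% (52.5 to 60.3) were. The same groups had a median GC content of 67% (66.3 to 67.7) and 69% (68.7 to 69.7). Peaks with a summit within 250 bp had a median fold of 6.49 (6.35 to 6.54), those further downstream 6.25 (6.05 to 6.43) and those further upstream 6.02 (5.83 to 6.19). The shared promoter peaks, which were stronger, had 56% of summits within 100 bp, near the 56.4% of the strongest group here. The classes were not compared at like strength, and whether their difference in spread follows strength was not tested.

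The peaks lay in CpG-island sequence. Over the 300 bases round each summit the median GC content was 68% (67.7 to 68.3), with quartiles of 63.7% and 71.3% and a range of 40% to 83.3%. Shared promoter peaks had 67% (66.7 to 67.3), and the 902 peaks of the list alone away from starts 66.3% (65.7 to 67.0). By criteria of over 50% G and C and an observed to expected ratio of CG pairs over 0.6, 94.3% of the 2545 (93.3 to 95.2) lay in CpG-island sequence. The share was 93.8% (92.6 to 94.9) for shared promoter peaks and 73.7% (70.7 to 76.5) for the 902. Only 17 of the 2545 were under 50% G and C, UBQLN2 and H2BC18 (44.7%), a histone gene, among them. MRPL41 and ZNF852 were among the richer ones with 77.3% and 77.7%.

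Neighboring starts were common. A second protein-coding start lay within 1 kb of 18.3% of the 2545 peaks (16.8 to 19.8), against 21.9% (20.0 to 23.9) of shared promoter peaks. A start of a long noncoding RNA lay within 1 kb of 24.1% (22.4 to 25.8) against 27.4% (25.3 to 29.5). A single peak covered the starts of both ORC3 and RARS2, the mitochondrial arginyl-tRNA synthetase, which are transcribed away from each other. Another covered the start of MED17, a Mediator subunit, and lay 22 bp from that of TAF1D. DDX31, an RNA helicase gene, shared its peak with GTF3C4, which encodes a subunit of TFIIIC. Of the 2545 peaks, 9 overlapped a small RNA gene, 0.354% against 1.07% of shared promoter peaks.

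By genes, 2930 of 20176 protein-coding starts had one of these peaks within 1 kb, which is 14.5%. Of the 5018 starts with any DDX23-/- peak, 58.4% had one of them. These shares are the backgrounds for the gene lists that follow, which were matched by symbol and so include a few relatives that are not in the named complex. No list was tested. The intervals are exact binomial ones, without correction for the 24 lists.

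Most lists of RNA processing and translation carried these peaks at a higher share than all genes. Spliceosome proteins, which remove introns from pre-mRNA, had one at 33 of 94 genes, 35.1% (25.5 to 45.6). SNRPG, of the Sm ring, had a fold of 11.1 and 37 fragments. SNRPA1 had a fold of 9.26 and SNRNP70, of the U1 particle, one of 9.19. LSM1, which acts in mRNA decay, shared its peak with BAG4, with a fold of 9.72. Aminoacyl-tRNA synthetases, which load tRNAs, had one at 13 of 35 genes, 37.1% (21.5 to 55.1), with the mitochondrial enzymes RARS2 (fold 9.43), EARS2 (9.28), IARS2 (8.99) and WARS2 (6.66) leading by -log10 p. Cytosolic ribosomal proteins had one at 23 of 83 genes, 27.7% (18.4 to 38.6), among them RPL35 (15.7), RPL27A (8.00) and RPS3 (7.59), and mitochondrial ones at 21 of 79, 26.6% (17.3 to 37.7), led by MRPL21 (9.67) and MRPL9 (8.84). RNA helicases of the DEAD-box and DEAH-box families had one at 14 of 54 genes, 25.9% (15 to 39.7), among them DDX6 (9.92), DDX31 (9.94) and DDX50 (7.67). For translation factors and their relatives the interval included the share of all genes, with 15 of 74, 20.3% (11.8 to 31.2). EIF4ENIF1 (11.5), which binds eIF4E, EEF1AKMT4 (12.3), a methyltransferase, and EIF2B4 (9.79) led by -log10 p. Of the genes with any DDX23-/- peak, the share with one of the 2545 was 61.1% (46.9 to 74.1) for the spliceosome, 59.1% (36.4 to 79.3) for the synthetases, 56% (34.9 to 75.6) for the helicases, 53.5% (37.7 to 68.8) for cytosolic and 51.2% (35.1 to 67.1) for mitochondrial ribosomal proteins, and 41.7% (25.5 to 59.2) for translation factors. All of these intervals include the 58.4% of all genes.

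Replication and cell cycle genes were also above the share of all genes. DNA replication and translesion synthesis genes had one of these peaks at 20 of 60, 33.3% (21.7 to 46.7). TIPIN, which protects stalled replication forks, had a fold of 12.7 and 59 fragments. CDC45, part of the replicative helicase, had a fold of 9.66 and POLA1, the catalytic subunit of DNA polymerase α, one of 9.35. GINS2, of the same helicase as CDC45, had a peak with a fold of 6.71 at the limit of distance. Cell cycle genes had one at 36 of 132, 27.3% (19.9 to 35.7), with E2F3 at 10.1 and PLK4, the kinase of centriole duplication, at 10.8. Of the replication genes with any DDX23-/- peak, 51.3% (34.8 to 67.6) had one of the 2545. For cell cycle genes it was 62.1% (48.4 to 74.5), and both intervals include the 58.4% of all genes.

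Among transcription and chromatin genes, only the interval of chromatin modifiers lay above the share of all genes. Chromatin modifiers had one at 30 of 115 genes, 26.1% (18.3 to 35.1), led by the histone methyltransferase KMT5C (fold 14.2) and the demethylases KDM1B (9.81) and KDM6A (10.0). The KMT5C peak lay 664 bp from a wild-type peak. General transcription factors and Mediator had one at 23 of 109, 21.1% (13.9 to 30), with TAF3 of TFIID at 7.46 and MED17 at 9.57. RNA polymerase subunits had one at 9 of 35, 25.7% (12.5 to 43.3), with POLR2I (8.86), POLR1F (6.35), POLR3A (7.37) and POLR1A (5.69). C2H2 zinc finger genes, many of them repressors of transposons, had one at 88 of 565, 15.6% (12.7 to 18.8), near the share of all genes, and ZNF142 (10.5), ZNF408 (11.7) and ZNF33A (11.4) were among the strongest.

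Homeobox genes had one at 17 of 99, 17.2% (10.3 to 26.1), again near the share of all genes. Their peaks had a median fold of 8.03, with a range of 4.83 to 16.2. The median was 6.35 for all 2545 peaks and 10.2 for shared promoter peaks. LHX1 (fold 16.2, 71 fragments) and OTX1 (14.8, 66 fragments) led, followed by NKX2-5 (9.60) and HOXD13 (10.9). Of the 23 homeobox genes with any DDX23-/- peak, 17 had one of the 2545, 73.9% (51.6 to 89.8), an interval that includes the 58.4% of all genes.

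Lists of protein turnover, traffic and transport ranged from 9.07% to 30.8%. Proteasome genes had one at 15 of 52, 28.8% (17.1 to 43.1), among them PSMD12 (fold 9.83) and PSMD1 (7.81). Ubiquitin enzymes had one at 57 of 277, 20.6% (16 to 25.8), with the ligase RNF169 at 13.5 and the scaffold CUL2 at 11.8. Chaperones had one at 18 of 94, 19.1% (11.8 to 28.6), with the co-chaperone BAG1 at 11.6. Vesicle transport genes had one at 44 of 206, with the retromer subunits VPS29 at 13.3 and VPS26A at 14.6, and nuclear pore and karyopherin genes at 16 of 52, 30.8% (18.7 to 45.1), with IPO13 at 10.3 and RANBP2 at 10.7. Solute carriers were below the share of all genes, with 32 of 353, 9.07% (6.28 to 12.6).

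Oxidative phosphorylation genes differed from the other lists. They had one of these peaks at 9 of 94, 9.57% (4.47 to 17.4), led by NDUFC2 (fold 8.85), COX15 (8.25), ATP5PF (5.86) and COX11 (5.91). Yet 38 of the 94 had some DDX23-/- peak, and only 23.7% of those (11.4 to 40.2) had one of the 2545, against 58.4% over all genes. This was the 1 list of the 24 whose interval left out 58.4%. The peak of ATP5PF lay 651 bp inside the gene's 5′ end and 628 bp from another list's peak.

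The lowest shares were those of olfactory receptors and keratins. Olfactory receptors, which serve smell, had none at 415 genes (interval up to 0.885%), and 1 of them had a shared peak. Keratins and keratin-associated proteins had one at 2 of 149 genes, KRT8 and KRT18, which share 1 peak with a fold of 5.03. Replication-dependent histones had one at 4 of 67, 5.97% (1.65 to 14.6), H2BC6 (6.79), H2BC18 (7.38) and the pair H2AC15 and H2BC15 (4.85, 1 peak). The peak of that pair lay 873 bp from a wild-type peak and 854 bp from a POLK-/- peak. Immediate early genes, which growth signals switch on quickly, had one at 4 of 23, 17.4% (4.95 to 38.8), KLF4 (7.91), DUSP1 (4.54), KLF6 (4.51) and EGR1 (4.29), with a median fold of 4.52. The EGR1 peak, with its summit 690 bp upstream, lay 263 bp from a wild-type peak and 250 bp from a POLK-/- peak.

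**Figure D3:**
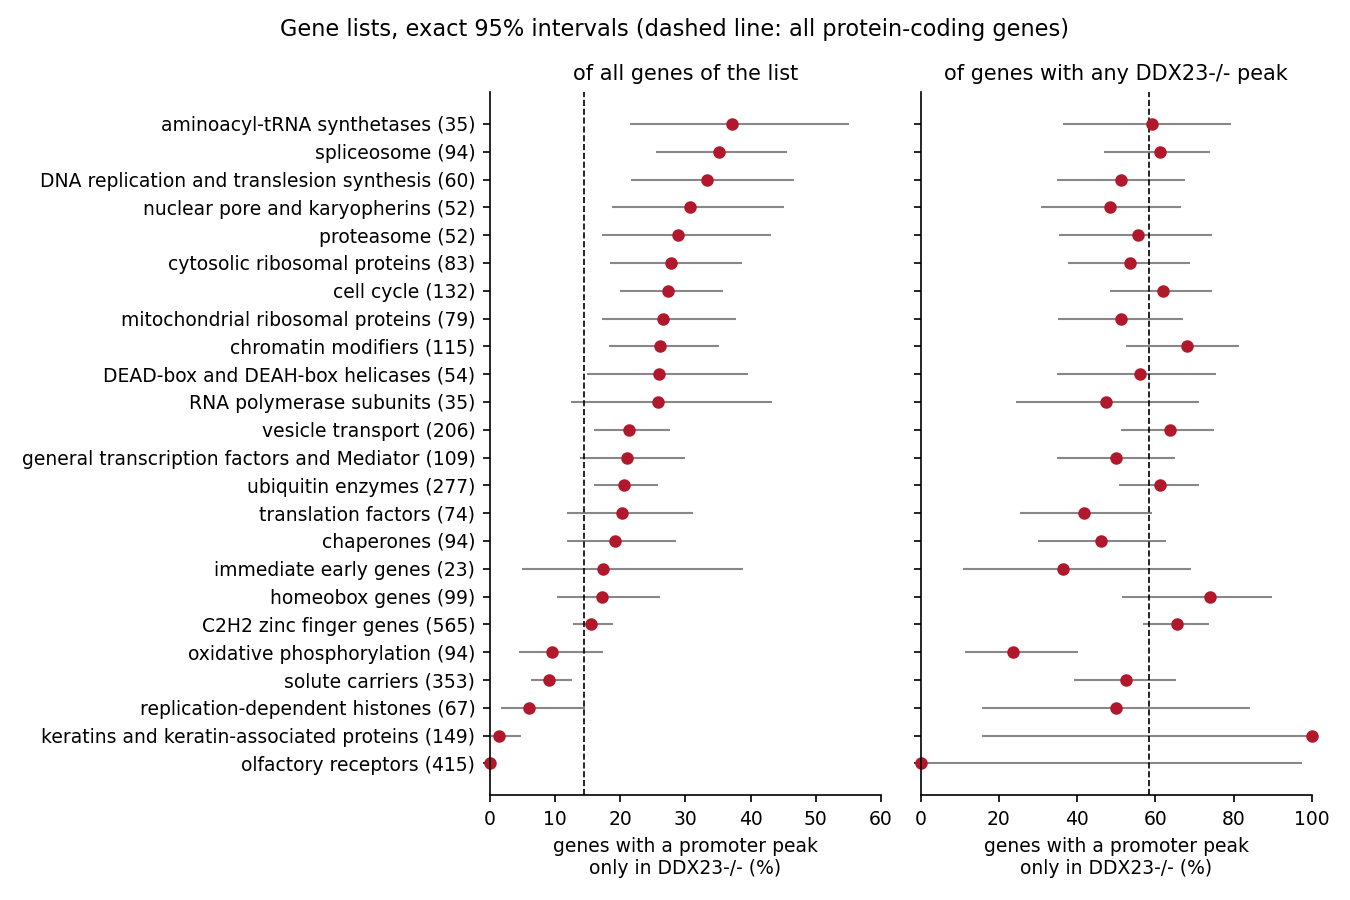
Share of genes (%) with a promoter peak only in DDX23-/- for the 24 gene lists (number of genes in brackets), with exact 95% intervals, over all genes of a list on the left and over its genes with any DDX23-/- peak on the right. Dashed lines give all protein-coding genes, 14.5% on the left and 58.4% on the right. In the left panel the points of most housekeeping lists lie to the right of the line, and in the right panel the intervals cross the line except that of oxidative phosphorylation.

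Of the genes named in the genotypes, DDX23 itself had one of the 2545 peaks, at chr12:49245845-49246055, with its summit 649 bp downstream of the 5′ end of the gene, a fold of 5.69 and 24 fragments. The nearest peaks of the wild-type and POLK-/- lists were 12821 and 12885 bp from that start. At the POLK start, the DDX23-/- list had a shared peak 85 bp away (fold 6.71, 29 fragments) and the wild-type list one 74 bp away (fold 6.36, 9 fragments), whereas the nearest POLK-/- peak was 174877 bp away. How these lines were edited at either gene is not given in the sources used here, so the peaks do not check the genotypes.

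Promoter sequence was read from 250 bases before to 50 after each start, for 20098 starts on chromosomes 1 to 22 and X. Starts with both kinds of peak, 87 in all, were counted with the shared ones, which leaves 2843 starts with one of the 2545 peaks, 2175 with a shared peak and 15080 with no DDX23-/- peak. The GC box GGGCGG stood at 70.6% (68.9 to 72.3) of the 2843, at 68.4% (66.4 to 70.3) of starts with a shared peak, at 46.4% of starts with no peak and at 52.2% of all starts. The ETS core CCGGAAG, bound by ETS factors, stood at 20.8%, 21.2% and 8.72%, and 11.8% of all. The TATA box TATAAA was less frequent at starts with a peak, at 4.61% and 5.15% against 12.9%, and 10.9% of all. The CpG island criteria were met at 83.5%, 84.4% and 45% of these starts. Among CpG-island starts only, the GC box stood at 78%, 74.5% and 78.9%, the ETS core at 23.2%, 23.4% and 15.1%, and the TATA box at 2.99%, 3.81% and 4.64%.

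For 3 motifs the interval at starts with one of the 2545 peaks lay below that at starts with a shared peak. The YY1 motif AAGATGGCG stood at 3.45% (2.81 to 4.18) against 5.29% (4.38 to 6.31), with 1.08% at starts with no peak and 1.87% of all. The palindrome TCTCGCGAG, which is a core promoter element, stood at 1.37% (0.977 to 1.87) against 3.13% (2.44 to 3.95), with 0.398% and 0.831%. The CCAAT box stood at 38.6% (36.8 to 40.4) against 42.8% (40.7 to 44.9), with 34.3% and 35.8%. For the NRF1 motif GCGCATGCG the values were 4.19% (3.48 to 4.99) against 5.24% (4.34 to 6.26), with intervals that overlap. The remaining motifs were CRE (TGACGTCA, 3.24% against 3.54%), E-box (CACGTG, 10.5% against 10.4%), E2F (TTTCCCGC, 3.59% against 2.94%), AP-1 (TGACTCA, 2.15% against 1.56%) and the B box of tRNA genes (GGTTCGA, 1.20% against 1.75%). Over all starts they stood at 2.29%, 8.33%, 1.98%, 3.98% and 0.98%. Both strands were searched. A match says only that the letters are there.

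**Figure D4:**
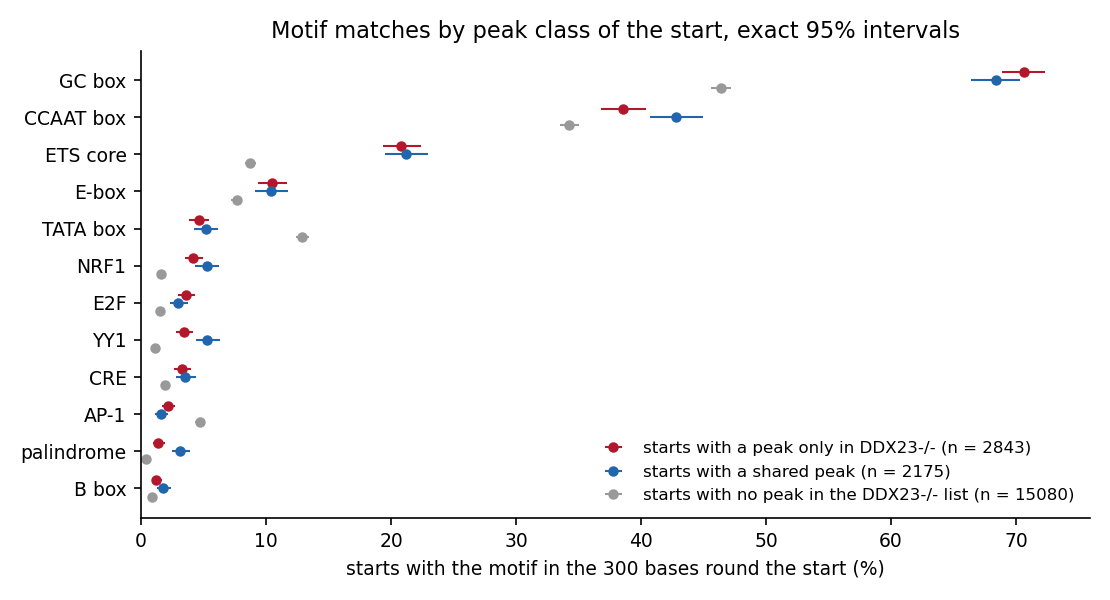
Share of starts (%) with each of the 12 motifs in the 300 bases from 250 before to 50 after the start, with exact 95% intervals, for 2843 starts with a promoter peak only in DDX23-/-, 2175 with a shared peak and 15080 with no DDX23-/- peak. For the GC box the first and second groups are at 70.6% and 68.4% and the third at 46.4%, and for YY1 the first is at 3.45% and the second at 5.29%.

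Over the chromosomes, the share of DDX23-/- promoter peaks that met the rule, 58.8% in all, ran from 47.6% (40.6 to 54.6, 98 peaks) on chromosome 3 to 75% (61.6 to 85.6, 42 peaks) on chromosome 18. On the X chromosome it was 74.6% (66.1 to 81.9, 94 peaks), UBQLN2, XIAP, POLA1, KDM6A and DDX3X among them. Yet 11.7% (9.67 to 14.1) of the protein-coding starts on X had one of these peaks, against 14.5% of all starts. Chromosome 1 held the most, 305, with 57.9% of its promoter peaks meeting the rule. None of the 2545 lay outside chromosomes 1 to 22 and X.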

How the data were processed

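ChIP-Seq peak lists of wild-type, POLK-/- and DDX23-/- HEK293T cells were analysed, 1 list per genotype, grouped by the labels. Of the 16 samples the other 13 have no list used here. The authors deposited for each peak its position and summit, a fold, the −log10 of a p-value, the −log10 of a q-value and a score equal to 10 times the latter. The fold is the ratio of scaled summit fragments to scaled local background, 1 added to both. The recovered scale was 0.66 for the DDX23-/-, 0.736 for the POLK-/- and 1 for the wild-type list. Fragments and background are given here before scaling, and folds of different lists are not on the same scale. Per the submitters' processing notes, Bowtie2, MACS2, bedtools and deepTools were used with hg19. Versions, threshold, control and pooling are not given in the sources used here.

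Peaks were placed on GRCh37 and the GENCODE 44 annotation lifted to it. Overlap was 1 bp or more. GC content was taken over 300 bases round the summit. Fragments and local background were recovered by solving the MACS2 formulas for a whole number of fragments. This worked for all 5945 DDX23-/-, all 2451 POLK-/- and 1466 of 1468 wild-type peaks and for simulated peaks. Relative depth was taken as the lowest recovered background of a list divided by the width of its shortest peak. The absolute number of reads is unknown. Medians have order-statistic intervals and shares exact binomial (Clopper-Pearson) ones, all at 95% and for counting error only, and no test was run. Genes named are the 15 peaks with the largest −log10 p, the 5 with the largest fold beyond them, up to 4 per list by −log10 p, the peaks next to each limit, genes with the most peaks, POLK and DDX23. UBQLN2's start peak, DDX3X, GINS2 and the examples by position or GC content were picked from these after their values were seen. The peaks, lists and motifs were chosen with earlier results of these data known. Python 3.11.15, numpy 2.4.6, pandas 2.3.3 and scipy 1.17.1 were used. A few genes and sequences that these rules select are not reported here. Alternatives were another distance, start, overlap, q limit, list or list size.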

Additional observations from a re-analysis of the deposited data

How the results depend on the processing

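Each of 6 results (the number of peaks, their median fold, GC content and distance from the start, and the shares downstream and in CpG-island sequence) was recomputed under 11 other settings. Of the 66 values, 53 stayed within the 95% interval of the reported value or, for the number of peaks, within 1.5 times of it. The number of peaks ranged from 2094 to 3426 except with lists of equal size, for which the DDX23-/- list was cut to 1468 peaks. There it was 197, with a median fold of 12.6, a median GC content of 69.7% and a median distance of 10 bp. Measured from the nearest start of any transcript, the median distance turned to -7 bp and the share downstream fell to 42.7%. From the nearest canonical transcript these were -13 bp and 44.8%. Within 500 bp of the start 54.5% were downstream. The median fold was 6.49 with a reciprocal overlap of 50%, 6.76 at a q of 1e-05 or less and 6.76 where only the wild-type list had to lack the peak, and GC content was then 67.3%. Lists of equal size and canonical transcripts were chosen after seeing the data. The causes of these shifts were not tested.

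No paired analysis was possible because each genotype has 1 peak list. Depth limits the comparison, since the fewest fragments at a summit were 6 in the wild-type, 10 in the POLK-/- and 14 in the DDX23-/- list.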

Other observations

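At 79 genes, 2 of these promoter peaks stood at the same start. Their summits were a median of 566 bp apart, from 319 bp at CCSAP to 2142 bp at TNRC18. Counted from the gene's 5′ end, at 42 of the 79 genes there was a summit on each side of the start. At 23 neither was upstream of it and at 14 neither was downstream. The sides were not counted from the canonical transcript. The stronger of the pair had a median of 1.31 times the fold of the weaker one, and at most 4.19 times, at UBQLN2, where the wide peak over the coding sequence is the stronger. CASP2, which encodes a caspase, had folds of 4.55 upstream and 9.15 downstream of its start. HNRNPM, a splicing regulator, had 5.96 upstream at 48% G and C and 9.79 downstream at 71.7%. CCNT2, a cyclin of the elongation factor P-TEFb, had 7.81 and 12.9. HIF1A, the oxygen-regulated transcription factor, had 4.95 and 5.61. JAK2, a cytokine receptor kinase, had both summits downstream of the gene's 5′ end yet upstream of its canonical transcript, at 5.17 and 7.32. DDX3X, a DEAD-box helicase on the X chromosome, had 5.90 upstream and 4.87 downstream of the gene's 5′ end, with both summits upstream of its canonical transcript. These genes were chosen from the 79 after their values were seen.

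Absence from the DDX23-/- list was much rarer at starts than presence in it alone. Of 20176 protein-coding starts, 110 had a wild-type or POLK-/- peak within 1 kb and no DDX23-/- peak. The DDX23-/- list is also the longest of the 3, and the part of list size in this was not tested. At 103 of the 2930 starts with one of the 2545 peaks, a wild-type or POLK-/- peak also lay within 1 kb of the start, at another place. The rule leaves out overlapping peaks and the share over all starts was not computed, so this count is a description too.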
